A study of Homo sapiens with 24 samples.

Results

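The genes described here encode 10 organizers of the spindle and of cytokinesis, the step that splits a dividing cell: ANLN, ECT2, PRC1, RACGAP1, CIT, CEP55, ASPM, TACC3, HMMR and NUSAP1. They are 10 of the 25992 gene names on the array and were found as the probes that carry one of these symbols in the scanner files. A total of 13 probes matched, since CIT, CEP55 and ASPM had 2 probes each, and all 13 were well above background on all 24 arrays, so every gene was tested.

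RNA came from A549 and H1975, established human lung adenocarcinoma cell lines, cultured with Pirfenidone, an oral antifibrotic drug, at 0.75 mg/ml, or with the same volume of PBS, for 6 h or 24 h. The 8 groups were thus A549 with PBS or Pirfenidone for 6 h, A549 with PBS or Pirfenidone for 24 h, and the same 4 conditions in H1975, with 3 samples each and 1 one-color Agilent array per sample. The dose is that of the labels; a figure legend of the study gives a higher one for its A549 array data, and this was not resolved. The labels name no engineered allele and no second agent, and each line comes from 1 tumor. The labels do not say whether the 3 samples of a group were separate cultures, so that p-values measure only the spread between these samples, which may be technical.

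Cytokinesis starts at anaphase, when PRC1 bundles antiparallel microtubules between the separating chromosomes and RACGAP1, together with the kinesin KIF23, binds this midzone. RACGAP1 activates ECT2, the exchange factor that loads the GTPase RhoA at the cell equator, and anillin (ANLN) and citron kinase (CIT) tie the contractile ring to the membrane and to the midbody, where CEP55 recruits the ESCRT proteins that cut the last bridge. ASPM, TACC3, HMMR and NUSAP1 act earlier, on the poles and microtubules of the spindle itself. Transcripts of such genes are made mainly in the G2 and M phases of the cell cycle, and many of their promoters hold a CHR element, TTTGAA, next to CCAAT boxes.

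Promoter windows from RefSeq (build GRCh38.p14, from 250 bases before to 50 bases after a transcript start) were at hand for 9 of the 10 genes: ANLN, ECT2, PRC1, CIT, CEP55, ASPM, TACC3, HMMR and NUSAP1. The letters TTTGAA were present on either strand in a window of 8 of these 9 genes, and in 15.2% of all 35116 windows. CCAAT was present in 7 of the 9 genes and in 34.6% of all windows, and both motifs together were present in 7 of the 9 and in 5.9% of all windows. The E2F words TTTGGCGC and TTTCCCGC were present in 1 of the 9, NUSAP1, and in 2.27% of all windows. The TACC3 window and the ANLN window held no CCAAT, and the TACC3 window held none of the words searched. These matches describe letters in a window and not binding.

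The following stretches, from 120 bases before to 5 bases after the annotated start and written 5′ to 3′ along the gene, are shown because they hold the shared motifs of 5 genes whose values are described next. Capitals mark TTTGAA and also CCAAT, with the reverse complement of each.
ECT2, chr3:172750606-172750730, plus strand: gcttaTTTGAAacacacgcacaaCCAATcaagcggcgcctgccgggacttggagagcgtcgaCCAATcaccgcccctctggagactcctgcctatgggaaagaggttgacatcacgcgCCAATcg
PRC1, chr15:90994531-90994655, minus strand: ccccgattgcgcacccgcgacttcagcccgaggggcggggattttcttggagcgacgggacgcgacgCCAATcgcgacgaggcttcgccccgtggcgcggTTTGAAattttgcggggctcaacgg
ANLN, chr7:36389742-36389866, plus strand: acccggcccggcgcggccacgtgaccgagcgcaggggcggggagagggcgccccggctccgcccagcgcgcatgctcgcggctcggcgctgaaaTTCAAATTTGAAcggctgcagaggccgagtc
CEP55, chr10:93496492-93496616, plus strand: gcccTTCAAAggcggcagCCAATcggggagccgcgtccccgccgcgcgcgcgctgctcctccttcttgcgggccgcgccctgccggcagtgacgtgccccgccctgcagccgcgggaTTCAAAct
HMMR, chr5:163460512-163460636, plus strand: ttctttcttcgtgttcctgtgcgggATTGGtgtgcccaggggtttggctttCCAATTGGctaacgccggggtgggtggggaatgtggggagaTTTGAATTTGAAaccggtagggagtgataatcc

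In ANLN, a reverse and a forward copy of TTTGAA lay end to end. In HMMR, 2 forward copies did so, and a forward and a reverse CCAAT overlapped. The PRC1 window held 1 copy of each motif. A second ECT2 window, at a downstream start, held TTTGAA at -242 and -182 from that start and no CCAAT.

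Values are log2 signals relative to the 75th percentile of the array, so that 0 is the level of a probe at that percentile and a difference of 1 is a fold change of 2. A gene was called different where it differed by at least 1 in size and its limma p, adjusted by Benjamini-Hochberg over all 23827 probes tested, did not exceed 0.05. On build hg19 the leading probes lie at chr7:36492587-36492646 (ANLN, plus strand), chr3:172538330-172538389 (ECT2, plus), chr15:91509426-91509485 (PRC1, minus), chr12:50383014-50383073 (RACGAP1, minus), chr12:120123631-120123690 (CIT, minus), chr10:95288754-95288813 (CEP55, plus), chr1:197053454-197053513 (ASPM, minus), chr4:1741478-1741717 (TACC3, plus), chr5:162918837-162918896 (HMMR, plus) and chr15:41673178-41673237 (NUSAP1, plus). The span of the TACC3 probe is longer than its 60 bases. Exons are not given, since no annotation of this build was used. The probe with the highest mean signal stands for a gene, and levels of different probes were not compared. An array had 62.7% to 69.5% of its probes well above background, no value was saturated, and arrays of 1 group correlated with a Pearson r between 0.9822 and 0.9963 across probes. The epithelial genes KRT7, KRT8, KRT18, KRT19, EPCAM and CDH1 were above background on all 12 arrays of each line, as was the fibroblast gene COL1A1, whereas COL3A1 and DCN were above it on 0 of 24. CDKN2A, which is known to be deleted in A549, was above background on 12 of 12 A549 arrays (-2.33 to -0.88) as well as on 12 of 12 H1975 arrays (2.37 to 3.07), so that its probe was lower in A549 and not absent. Of the lung lineage genes, SFTPC and NAPSA were above background on all 12 arrays of each line, SFTPB on 1 A549 and 9 H1975 arrays, and NKX2-1 on 0 A549 and 12 H1975 arrays. Among leukocyte and endothelial genes, PECAM1 was above background on 0 A549 and 12 H1975 arrays, CD3E on 0 and 1, PTPRC on 12 and 11, and CDH5 on 12 and 12. Probes above background can be dim: PTPRC lay between -6.83 and -5.7, CDH5 between -6.38 and -4.98 and SFTPC between -4.75 and -3.93. In bulk samples, fewer dividing cells and less RNA per cell cannot be told apart.

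Each array also carries a date in its file name, called a run here and numbered 1 to 4 by time; what the date marks is not stated. A549 was measured in runs 1, 2 and 3 and H1975 in runs 1, 3 and 4, with 1 PBS and 1 Pirfenidone array per line, time and run. The arrays lay on 7 slides, each with arrays of 1 line only. At 6 h Pirfenidone stood at place 1 of a slide and PBS at place 2. At 24 h Pirfenidone stood at place 3 and PBS at place 4. Drug and time therefore cannot be told apart from the place on the slide. In A549 at 24 h the PBS and Pirfenidone arrays of run 1 differed in the opposite direction to the other pairs. The A549 results at 24 h are therefore given with and without these 2 arrays. On the PBS array of run 1 the mean of the 10 genes was 0.76, against 1.87 on each of the other two PBS arrays, and the proliferation marker MKI67 was at -1.36 against 0.2 and -0.13. The Pirfenidone array of the same run had the highest mean of its group, 2.01, against 1.69 in run 2 and 1.12 in run 3. MKI67 was at 0.05, 0.08 and -1.39 on the Pirfenidone arrays of runs 1, 2 and 3. The low Pirfenidone array was thus that of run 3, which was kept in the results without the run 1 pair. Exchanging the labels of any PBS and Pirfenidone pair reverses the sign of its differences by arithmetic, so that the sign cannot show an exchange. Whether the labels were exchanged was not tested, and all values follow the labels as given.

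The first question was how each line responded to the drug at each time. In H1975 at 24 h, 8 of the 10 genes fell with Pirfenidone: ANLN, PRC1, ASPM, HMMR, CEP55, NUSAP1, TACC3 and CIT. Of all 23827 probes tested, 239 or 1.0% were called lower in this comparison. The differences of the 8 genes lay between -1.34 and -1.08, that is 2.53-fold to 2.11-fold lower, and the 2 other genes, RACGAP1 and ECT2, were at -0.98 and -0.97. The median of the 10 genes was -1.17, against 0.02 over all probes. In all 10 genes the 3 Pirfenidone arrays lay below the 3 PBS arrays, which was so for 15.6% of all probes.

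**Figure D1:**
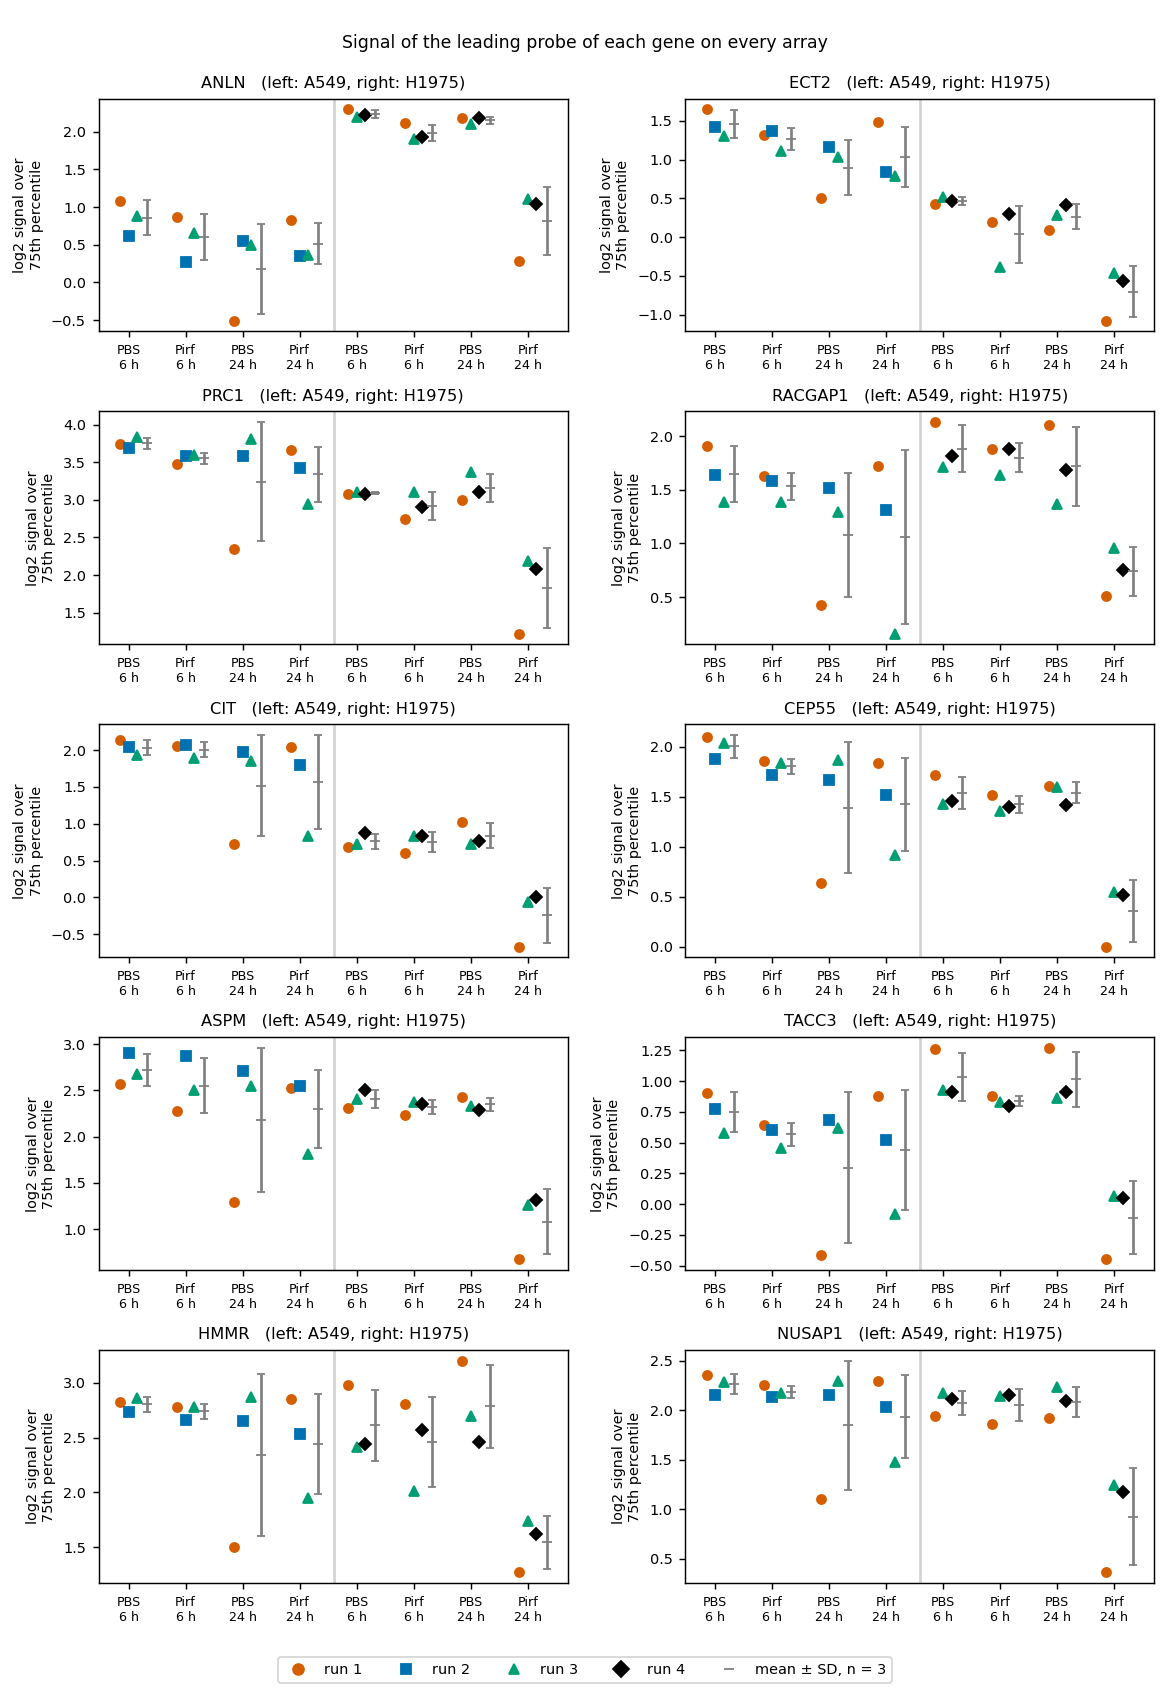
Log2 signal relative to the 75th percentile of the array (vertical axes, with a scale of their own per gene) for the leading probe of each of the 10 genes on all 24 arrays, with A549 left and H1975 right of the grey line in each panel; symbols mark the run and grey bars the mean ± SD of 3 arrays. The Pirfenidone arrays of H1975 at 24 h lie below all other H1975 arrays in every panel, and the run 1 PBS array of A549 at 24 h lies below the 2 other PBS arrays of its group in every panel.

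RhoA activation at the midzone rests on ECT2 and RACGAP1, which showed the smallest differences of the 10 genes. ECT2 was at 0.09, 0.29 and 0.41 on the PBS arrays of runs 1, 3 and 4 in H1975 at 24 h and at -1.08, -0.47 and -0.57 on the Pirfenidone arrays. The groups did not overlap, with a difference of -0.97 (SE 0.22, adjusted p = 0.0144), which passed the adjusted p and missed the limit on size. RACGAP1 was at 2.1, 1.37 and 1.68 with PBS and at 0.51, 0.96 and 0.75 with Pirfenidone. Here too no Pirfenidone array reached a PBS array, and the difference of -0.98 (SE 0.31, adjusted p = 0.0701) did not pass. With run as a block RACGAP1 had an adjusted p of 0.0388, and without both A549 arrays of run 1 an adjusted p of 0.0165, and it missed the limit on size in both fits.

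PRC1, the microtubule bundler of the midzone, was at 3, 3.37 and 3.11 on the PBS arrays of runs 1, 3 and 4 and at 1.22, 2.18 and 2.08 on the Pirfenidone arrays. Its run 1 Pirfenidone array was the lowest of the line, and the difference was -1.34 (SE 0.29, adjusted p = 0.0135). ANLN, the scaffold that links the ring to RhoA, actin and septins, was at 2.18, 2.1 and 2.18 with PBS and at 0.29, 1.11 and 1.04 with Pirfenidone. The 3 PBS values of ANLN were almost the same, and its difference of -1.34 (SE 0.25, adjusted p = 0.00593) had the smallest adjusted p of the 10 genes.

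CIT, the kinase that stabilizes the midbody, was at 1.03, 0.72 and 0.76 with PBS and at -0.67, -0.07 and 0.01 with Pirfenidone. All 3 Pirfenidone arrays were lower, with a difference of -1.08 (SE 0.29, adjusted p = 0.0328). A second CIT probe, with a mean of -4.91 over the 24 arrays, differed by -0.87 (SE 0.29, adjusted p = 0.0818) and did not pass. CEP55, which brings the ESCRT machinery to the midbody, was at 1.61, 1.6 and 1.42 with PBS and at 0, 0.55 and 0.52 with Pirfenidone, and fell by 1.19 (SE 0.25, adjusted p = 0.0117). Its second probe also passed, at -1.06 (SE 0.25, adjusted p = 0.0204).

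Among the spindle genes, ASPM, a protein of the spindle poles, was at 2.43, 2.33 and 2.29 with PBS and at 0.67, 1.26 and 1.31 with Pirfenidone. The groups lay far apart, with a difference of -1.27 (SE 0.28, adjusted p = 0.0141) on the first probe and -1.22 (SE 0.29, adjusted p = 0.0194) on the second. TACC3, which with clathrin and CKAP5 crosslinks the fibers of the spindle, was at 1.27, 0.86 and 0.91 with PBS and at -0.45, 0.07 and 0.05 with Pirfenidone, and fell by 1.12 (SE 0.25, adjusted p = 0.0157). Run 1 was highest among the TACC3 PBS arrays and lowest among its Pirfenidone arrays.

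HMMR, a spindle pole protein that binds TPX2 and is also known as a hyaluronan receptor, was at 3.2, 2.7 and 2.46 with PBS and at 1.27, 1.74 and 1.62 with Pirfenidone. Run 1 again held both the highest PBS and the lowest Pirfenidone array, and the difference was -1.24 (SE 0.31, adjusted p = 0.0232). NUSAP1, which bundles microtubules around the chromosomes, was at 1.92, 2.23 and 2.09 with PBS and at 0.36, 1.24 and 1.17 with Pirfenidone. Its groups did not overlap either, and the difference was -1.15 (SE 0.27, adjusted p = 0.0169).

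Within each run the PBS and Pirfenidone arrays of H1975 at 24 h differed in the same direction in all 10 genes. The arrays of the run 3 pair lay on different slides, and those of runs 1 and 4 shared a slide. The median difference was -1.71 in run 1, -0.98 in run 3 and -0.92 in run 4, while 50.4%, 47.8% and 44.3% of all probes were lower in these pairs. The 8 calls depended on the run 1 Pirfenidone array, replicate 3 of its group: without it the differences of the 10 genes kept their sign, their adjusted p-values lay at 0.0506 or above, and 0 were called. Leaving out the PBS array of replicate 1 or of replicate 3 left 4 and 5 genes called, and a fit of only the 6 arrays compared called 0, with adjusted p-values of the 8 genes between 0.0502 and 0.0714. Without both A549 arrays of run 1, which enter this comparison only through the shared estimate of the spread, 8 genes were called, with ANLN at an adjusted p of 0.00044.

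**Figure D2:**
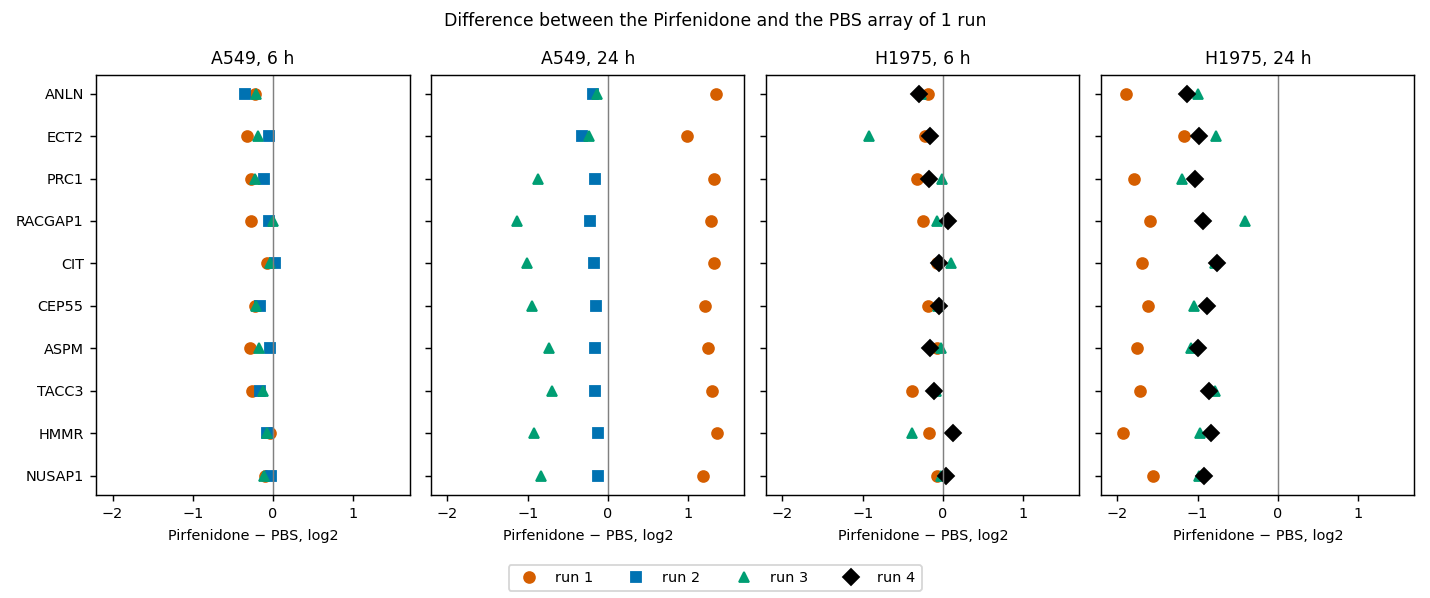
Difference in log2 signal between the Pirfenidone and the PBS array of the same run (horizontal axis) for the leading probe of each of the 10 genes, in each line and at each time, with symbols for the run. All values of H1975 at 24 h lie below 0, whereas the run 1 values of A549 at 24 h lie between 0.98 and 1.36 and those of runs 2 and 3 below 0.

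At 6 h no gene was called in either line. In A549 the 10 differences at 6 h lay between -0.26 (ANLN) and -0.03 (CIT), with a median of -0.17 against -0.01 over all probes, of which 0.176% were called. In H1975 they lay between -0.43 (ECT2) and -0.01 (CIT), with a median of -0.12 against 0.05 over all probes, of which 0.491% were called. None of these differences had an unadjusted p under 0.05 with limma. The methods' t-test paired by run gave an unadjusted p under 0.05 for 4 genes in A549 (ANLN, CEP55, TACC3 and HMMR). It did so for 1 in H1975 (ANLN), and the share of all probes is not given. The adjusted p-values were 0.174 or more, and all differences were far inside the limit on size. The small differences mostly had 1 sign within a run. In A549 10, 9 and 9 genes were lower with Pirfenidone in runs 1, 2 and 3, against 54.6%, 48.9% and 56.2% of all probes. In H1975 10, 9 and 7 genes were lower in runs 1, 3 and 4, against 53.2%, 33.5% and 46% of all probes. ECT2 in H1975 was the largest: its PBS arrays of runs 1, 3 and 4 were at 0.42, 0.52 and 0.46 and its Pirfenidone arrays at 0.19, -0.39 and 0.3. The run 3 array alone was far from its PBS partner, and the difference had an adjusted p of 0.491.

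In A549 at 24 h no gene was called (0.0126% of all probes were), and none had an unadjusted p under 0.05 with limma or with the methods' t-test. The median difference was 0.1, with 9 of 10 genes above 0. This median averaged pairs that went opposite ways: in run 1 all 10 genes were higher with Pirfenidone, by 0.98 to 1.36, in run 2 all 10 were lower, with a median of -0.16, and in run 3 all 10 were lower, with a median of -0.85. Of all probes, 55.5%, 52.9% and 53.5% were lower with Pirfenidone in the pairs of runs 1, 2 and 3. Without both run 1 arrays the 10 differences lay between -0.67 (RACGAP1) and -0.17 (ANLN), and 0 were called, with adjusted p-values of 0.408 or more. The direction of 9 genes thus turned, which follows from leaving out the only pair above 0. That pair was singled out by the values of these same genes, so that the turn is no separate result.

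The genes did not move equally in the A549 pairs. CIT was at 0.73, 1.98 and 1.85 on the PBS arrays of runs 1, 2 and 3 and at 2.05, 1.8 and 0.84 on the Pirfenidone arrays. RACGAP1 was at 0.43, 1.52 and 1.29 with PBS and at 1.72, 1.31 and 0.16 with Pirfenidone. For both genes the low arrays were those of run 1 in the PBS group and of run 3 in the Pirfenidone group. ANLN was at -0.51, 0.55 and 0.5 with PBS and at 0.83, 0.35 and 0.36 with Pirfenidone, and ECT2 was at 0.5, 1.16 and 1.03 and at 1.48, 0.84 and 0.79. ANLN and ECT2 shared the low PBS array of run 1 and not the low Pirfenidone array of run 3, where their differences were -0.14 and -0.24 against -1.13 to -0.7 for the 8 other genes.

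The difference between the lines in their response at 24 h was tested directly. It had a median of -1.25, with the change in H1975 the more negative in all 10 genes. All 10 had an unadjusted p under 0.05, for which the share of all probes is not given. After adjustment 0 genes passed, and 0.193% of all probes were called. ANLN came nearest, at -1.67 (SE 0.35, adjusted p = 0.0577), and the adjusted p-values of the other 9 genes lay between 0.142 (ECT2) and 0.395 (RACGAP1). With run as a block, ANLN (-1.67, adjusted p = 0.0287) and ASPM (-1.39, adjusted p = 0.0401) were called, and with run as a block and without both A549 arrays of run 1 only ANLN was, at -1.17 (adjusted p = 0.0368). Without these arrays and without the block 0 were called, with values between -1.17 (ANLN) and -0.31 (RACGAP1). ANLN was also the 1 gene called, at adjusted p-values from 0.0448 to 0.049, when A549 PBS replicate 1, A549 PBS replicate 2, A549 Pirfenidone replicate 2 or H1975 Pirfenidone replicate 1 of 24 h was left out.

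Both lines had a pair in runs 1 and 3, and the gap between the lines differed between these runs. The arrays of the H1975 pair of run 3 lay on different slides. In run 1 the H1975 change lay below the A549 change in all 10 genes, by a median of -3 (range -3.29 to -2.15). In run 3 it lay below in 8 of 10 genes, by a median of -0.13 (range -0.85 to 0.72). There, ANLN changed by -0.99 in H1975 and -0.14 in A549, whereas RACGAP1 changed by -0.41 in H1975 and -1.13 in A549. CEP55 differed little in run 3, at -1.05 in H1975 and -0.95 in A549.

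At 6 h the difference in response between the lines lay between -0.24 and 0.1 for the 10 genes, with 0 called by limma, 0 at an unadjusted p under 0.05, and 0.0336% of all probes called. For the change in response from 6 h to 24 h in H1975, 8 genes had an unadjusted p under 0.05 (share of all probes not given). By limma 0 were called (0.00420% of all probes were). The change in response had a median of -1.08 there, with adjusted p-values of 0.578 or more. In A549 its median was 0.26, with 0 genes at an unadjusted p under 0.05 and 0 called by limma (0.0294% of all probes), and without both run 1 arrays of 24 h 9 of the 10 values were below 0, between -0.57 (CIT) and 0.09 (ANLN), again with 0 called.

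Between 6 h and 24 h with PBS alone, no gene was called in either line by limma. In H1975 the differences lay between -0.2 (ECT2) and 0.18 (HMMR), with a median of -0.01, 0 genes at an unadjusted p under 0.05 and 0.315% of all probes called. In A549 all 10 genes were lower at 24 h, with a median of -0.53 and 0.109% of all probes called. An unadjusted p under 0.05 was found for 3 genes (ANLN, ECT2 and CEP55), with the share of all probes not given. In these 3 genes the 24 h arrays lay below all 6 h arrays, which was so for 6.81% of all probes. The median change with time was -1.36 in run 1 against -0.1 and -0.09 in runs 2 and 3, and without both run 1 arrays of 24 h the 10 differences lay between -0.36 (ECT2) and -0.04 (HMMR and NUSAP1).

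The level of the genes in the 2 lines without the drug differed most for ANLN. No slide held both lines, so that a difference between lines cannot be told apart from one between slides. At 6 h ANLN was at 1.08, 0.62 and 0.88 in A549 (runs 1, 2 and 3) and at 2.3, 2.2 and 2.22 in H1975 (runs 1, 3 and 4). Every H1975 array was higher, and the difference of 1.38 (SE 0.25, adjusted p = 9.66e-05) was called. CIT went the other way, from 2.14, 2.04 and 1.93 in A549 to 0.68, 0.73 and 0.88 in H1975, and its difference of -1.27 (SE 0.29, adjusted p = 0.000897) was called as well. These 2 genes of 10 compare with 32.4% of all probes called. The second CIT probe differed by -0.53 (adjusted p = 0.131), and the mean of both CIT probes, at -0.9, did not pass the limit on size. ECT2 was lower in H1975 by 0.99 on the log2 scale (SE 0.22, adjusted p = 0.000641) and just missed that limit, which it passed when A549 replicate 1, A549 replicate 2 or H1975 replicate 2 was left out, or with run as a block, at -1.07 to -1.01.

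At 24 h 1 gene of 10 was called, against 32.9% of all probes. ANLN was at -0.51, 0.55 and 0.5 in A549 and at 2.18, 2.1 and 2.18 in H1975, a difference of 1.97 (SE 0.25, adjusted p = 1.44e-06). CIT (-0.69, adjusted p = 0.0485), ECT2 (-0.63, adjusted p = 0.0177) and TACC3 (0.71, adjusted p = 0.0208) passed the adjusted p and not the limit on size. Without both A549 arrays of run 1, CIT was at -1.08 (adjusted p = 0.000577) and was called beside ANLN. Leaving out the PBS array of that run alone also gave 2 genes called, with CIT at -1.08 (adjusted p = 0.00151).

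**Figure D3:**
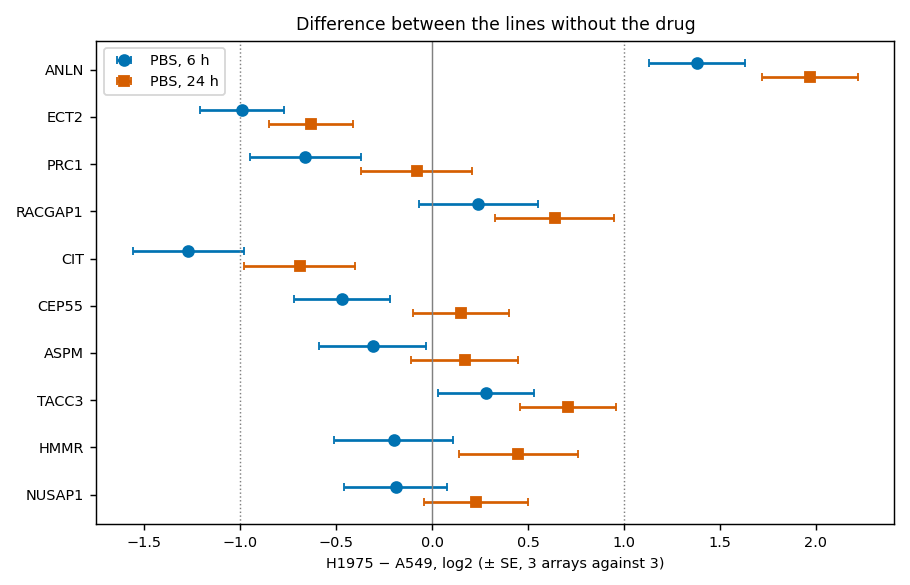
Difference in log2 signal between H1975 and A549 with PBS (horizontal axis, mean of 3 arrays minus mean of 3 arrays, ± SE of the fit) for the leading probe of each gene at 6 h and 24 h, with dotted lines at the limit of 1 in size. ANLN lies beyond the upper line at both times, and CIT lies beyond the lower line at 6 h and inside it at 24 h.

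Across the 8 groups, H1975 with Pirfenidone for 24 h had the lowest mean in 9 of the 10 genes. The exception was ANLN, which was lowest in A549 with PBS at 24 h, at 0.18 ± 0.6 (SD, n = 3), where the run 1 array was low. Without both A549 arrays of run 1, ANLN was lowest in A549 with Pirfenidone at 24 h, at 0.36 against 0.52 with PBS, RACGAP1 was at 0.74 in both lines with Pirfenidone at 24 h, and H1975 with Pirfenidone for 24 h was lowest in the 8 other genes. The highest mean was that of A549 with PBS at 6 h in 7 genes and of H1975 with PBS at 6 h in ANLN, RACGAP1 and TACC3. Of the 70 steps between neighbors in these orders, 17 were larger than the larger SD of both groups, and in 10 the arrays did not overlap. The lowest group stood apart from its neighbor without overlap in ECT2, PRC1, CIT and CEP55. This neighbor was H1975 with Pirfenidone for 6 h in ECT2, PRC1 and CIT, and A549 with PBS for 24 h in CEP55. For steps without overlap the share of all probes is not given, so that these counts are a description. In RACGAP1 no step was larger than the spread, with means from 0.74 to 1.89.

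The 10 genes moved together over the arrays. After the mean of each line was taken off, the level of a gene correlated with the mean of the other 9 with a Pearson r from 0.89 (ECT2) to 0.98 (CEP55 and TACC3) over 24 arrays. These points share the drug, the line and the run, so that the values are a description. The lowest values within a line were 0.83 for ANLN in A549 and 0.88 for HMMR in H1975. Without both A549 arrays of run 1, the r in A549 was 0.54 for ANLN, 0.73 for ASPM, 0.78 for ECT2 and 0.9 to 0.96 for the 7 other genes. The 2 probes of a gene correlated with an r of 0.93 for CIT, 0.95 for CEP55 and 0.98 for ASPM. Among 14629 genes, the 5 outside the 10 themselves whose pattern was most like the mean of the 10 were DLGAP5 (r = 0.994), PBK (0.986), GTSE1 (0.984), KIF23 (0.98) and KIF4A (0.98), and these 5 were also the nearest without both A549 arrays of run 1.

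The partners of these proteins gave a wider view of the same machinery in H1975 at 24 h. Of 22 other genes of the division ring and midzone, 8 were called lower (1.0% of all probes were) and 0 higher, with a median of -0.81. They included KIF23 (-1.37, adjusted p = 0.0103), the motor that pairs with RACGAP1, and KIF4A (-1.24, adjusted p = 0.0244), which binds PRC1. KIF20A (-1.63, adjusted p = 0.02) and PLK1 (-1.36, adjusted p = 0.0318) were also called. So was the chromosomal passenger complex of AURKB (-1.29), INCENP (-1.24), CDCA8 (-1.37) and BIRC5 (-1.37), with adjusted p-values between 0.0141 and 0.026. KIF14, which binds CIT, was at -1.25 (adjusted p = 0.054). RHOA, the GTPase switched on by ECT2, was at -0.04 (adjusted p = 0.898), MYH9, the heavy chain of the ring's myosin, at 0.31 (adjusted p = 0.583), and the septins SEPT2, SEPT7, SEPT9 and SEPT11 lay between -0.26 and 0.02.

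Of the 18 abscission genes, which encode the ESCRT machinery and its regulators, 0 were called, against 1.89% of all probes, with a median of 0.09. A count of 0 of 18 is near that share. TSG101 and PDCD6IP, both bound by CEP55, were at 0.1 (adjusted p = 0.813) and -0.06 (adjusted p = 0.784). ZFYVE19, a checkpoint protein of abscission, was at 0.49 (adjusted p = 0.0307) and stayed within the limit on size. CEP55 itself was called lower, as given above.

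Of 36 spindle assembly genes, 15 were called lower (1.0% of all probes were) and 0 higher, with a median of -0.8. They included AURKA (-1.38, adjusted p = 0.0122), the kinase of the spindle poles that binds TACC3, TPX2 (-1.09, adjusted p = 0.0339), the partner of HMMR, WDR62 (-1.42, adjusted p = 0.012), a pole protein that works with ASPM, and the motor KIF11 (-1.4, adjusted p = 0.0109). The others were GTSE1, PSRC1, DLGAP5, KIF18B, KIFC1, SPAG5, KIF15, KNSTRN, KIF2C, CKAP2L and FAM83D, between -1.6 and -1. CKAP5 (-0.46, adjusted p = 0.262) and CLTC (-0.11, adjusted p = 0.763), which join TACC3 on spindle fibers, KATNA1 (0.01, adjusted p = 0.979), NUMA1 (0.07, adjusted p = 0.905) and the TACC3 relatives TACC1 and TACC2 (-0.22 and 0.17) did not pass. Among the HAUS subunits of augmin, the complex that branches microtubules, HAUS7 (-0.85, adjusted p = 0.0135) and HAUS8 (-0.81, adjusted p = 0.0483) passed the adjusted p and not the limit on size.

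The 7 proliferation markers moved with these genes, with a median of -1.09. MKI67 (-1.36), TOP2A (-1.09), CCNB1 (-1.18) and CCNA2 (-1.2) were called lower, against 1.0% of all probes. CDK1 (-0.95), MCM2 (-0.85) and PCNA (-0.81) passed only the adjusted p. The part of the markers in the result was not tested. In the 3 other Pirfenidone comparisons, 0 genes of the 4 lists were called, against 0.0126% to 0.491% of all probes. In A549 at 24 h the medians were 0 for the ring and midzone, 0 for abscission, 0.07 for the spindle and 0.14 for proliferation, and without both run 1 arrays they were -0.48, 0.02, -0.37 and -0.57, with 0 called. The counts in H1975 at 24 h depended on the same array as above: without the Pirfenidone array of replicate 3, 0 genes of the 4 lists were called, with medians of -0.69 for the ring and midzone, -0.63 for the spindle and -0.92 for proliferation. Without one of the PBS arrays of H1975, 1 to 3 ring genes, 5 to 8 spindle genes and 0 markers were called, and without the Pirfenidone array of replicate 1, 2 markers were. In the fit of only the 6 arrays compared, 3 ring genes, 6 spindle genes and 1 marker were called, and without both A549 arrays of run 1 the counts were 10, 15 and 4.

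**Figure D4:**
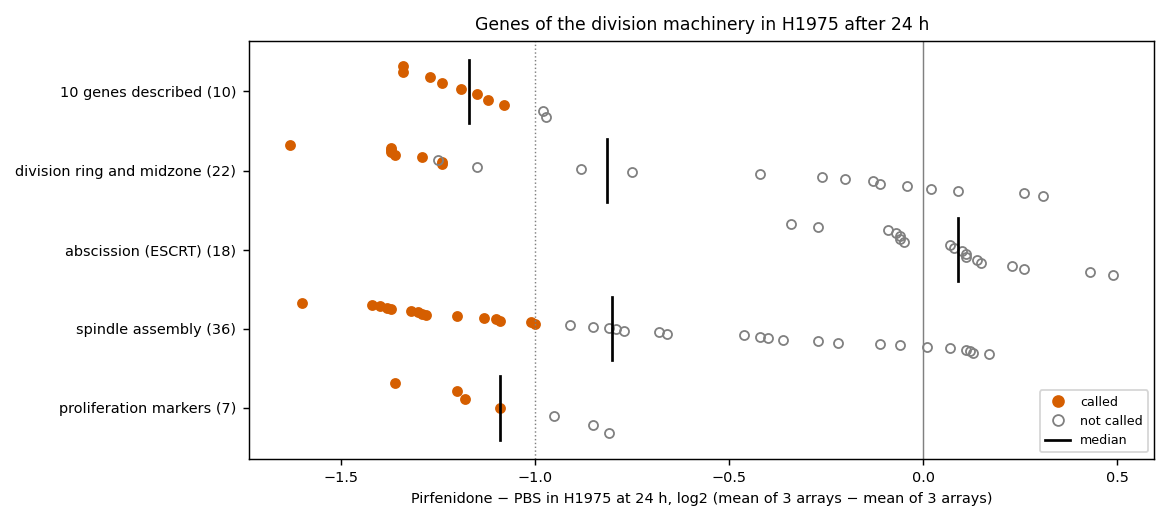
Difference in log2 signal between Pirfenidone and PBS in H1975 at 24 h (horizontal axis, mean of 3 arrays minus mean of 3 arrays) for the 10 genes and 4 lists of the division machinery, 1 point per gene, filled where called, with a black line at the median and a dotted line at -1. The abscission genes lie around 0, with a median of 0.09, and the 3 other lists have medians between -1.09 and -0.8.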

How the data were processed

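Total RNA of 24 samples was hybridized to one-color Agilent arrays, 1 per sample. The deposited scanner files hold an intensity per spot, which the authors extracted with Agilent's software, with background subtracted and no scaling between arrays. Spot flags, deposited in the same files, mark outlier, saturated and well-above-background spots. A second deposited file holds the log2 values that the authors processed from these arrays, with array medians from -0.16 to 0.16. Deviations of the arrays from each probe's mean were correlated between this file and the scanner values (r of 0.9995), so that the log2 scale and direction of the file are known; the sources used here do not give its scaling.

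From each log2 processed signal the array's own 75th percentile was subtracted, taken over 43118 spots without controls. Outlier spots were dropped and spots of a probe averaged. Of 34127 probes, 23827 that were well above background (a share of spots of at least 0.5) on all 3 arrays of 1 group or more were tested with limma (version 3.58.1, run under R version 4.3.3) in 1 fit of 8 group means with 16 residual degrees of freedom and Benjamini-Hochberg adjustment, which replaces the study's Westfall-Young adjustment. The steps were tested on simulated data. With 3 arrays per group, precision is limited by their number.

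Groups were taken from the sample labels. The members and the lists (ring and midzone, abscission, spindle assembly, proliferation, cell type markers) were chosen with earlier results of these data known. Genes of like pattern are the 5 non-members with the highest Pearson r among genes whose leading probe was well above background on all 24 arrays. Every member is named, and list genes are named where they passed in a Pirfenidone comparison or bind a member; ZFYVE19, NUMA1, TACC1, TACC2, CDK1, MCM2, PCNA, the septins, HAUS7 and HAUS8 were named after their values were seen. Alternatives were normexp (offset of 50), the authors' values, quantile normalization, other filters, replicate number, run or slide as a block, only the arrays compared, Holm adjustment, no limit on size, averaging a gene's probes, the methods' t-test paired by run, and arrays left out. That t-test is the plain one of the study's statistics section. A figure legend of the study also names a paired t-test where array data of selected A549 genes are shown. To find regulated genes on the arrays, the methods name a moderated test, as limma's is. One marker gene is not reported here.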

Additional observations from a re-analysis of the deposited data

How the results depend on the processing

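The sign of every called member held under all alternatives run. In H1975 at 24 h the count of 8 was 6 with normexp, 9 with quantile normalization, 9 with the authors' values, 8 with no filter, 9 with no limit on size, 8 with run as a block, 7 with slide as a block (which in effect leaves out PBS replicate 1, alone on its slide), 0 with Holm adjustment, 0 with only the arrays compared, and 5 (unadjusted) and 0 (Benjamini-Hochberg) with the methods' t-test; with 1 array left out in turn it ranged from 0 to 9. The loss with Holm adjustment follows from its stricter limit. The fit of only the arrays compared has fewer samples, and its SEs were smaller, such as 0.18 against 0.25 for CEP55. The cause of that loss and of the others was not tested. Between the lines with PBS at 6 h, the count of 2 was 0 with Holm adjustment 1 with a gene's probes averaged, 3 with run as a block, 3 with no limit on size, and 2 to 3 with an array left out. At 24 h the count of 1 was 4 with no limit on size, 2 without both A549 arrays of run 1, 2 with run as a block without them (chosen after seeing the data), and 1 to 2 with an array left out. For the difference in response between the lines at 24 h, the count of 0 was 2 with run as a block, 1 with that block without both A549 arrays, and 0 to 1 with an array left out. The replicate block left 8 genes called in H1975 at 24 h, with 492 probes of the array called against 451, and changed no count of members. Deviations of same-numbered PBS and Pirfenidone arrays correlated with an r of 0.7, 0.58 and 0.64 in A549 at 6 h. The r was 0.39, 0.08 and -0.1 in A549 at 24 h and 0.46, 0.53 and 0.72 in H1975 at 24 h. In these comparisons same-numbered arrays are of the same run. In H1975 at 6 h, where same-numbered arrays are of different runs, the r was -0.48, 0.43 and -0.68 (0.82, 0.5 and 0.7 within a run). Of the 8 genes, CIT and HMMR lost the call with normexp, HMMR with slide as a block and CIT with its probes averaged, and ECT2 gained it with quantile normalization and with the authors' values. Over all probes, the 451 calls became 172 with normexp, 33 with Holm adjustment, 143 with only the arrays compared, 702 with run as a block, 1492 with no limit on size, 0 with the methods' t-test after Benjamini-Hochberg, and 104 to 478 with an array left out. The counts of members in the other comparisons were 0 under every alternative. Over single genes, 2574 values kept their side of the threshold, 52 were weaker and 24 stronger. The A549 values at 24 h rest on 3 pairs that disagree in sign. All 13 probes were well above background on all arrays. The group order, correlations and A549 lists without both run 1 arrays were added after seeing the data.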
